A study of Mus musculus with 9 samples.

Results

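Described here were 46 mouse genes for DNA replication and nucleotide supply, measured on microarrays in a normal airway cell line with the gene Gprc5a, a normal airway cell line without it and a lung tumour cell line without it. The 46 genes were listed by name, and each was read by the non-control probe set that carries its symbol alone, the brightest by its mean over 9 arrays where a gene had several. All 46 were found among the 18193 genes that the array names in this way. They were sorted by role into 12 for licensing, 7 for helicase activation, 18 for the polymerases, the sliding clamp and strand processing, 5 for nucleotide supply, and 4 for entry into S phase and its checkpoint.

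The study compared 3 lines, each of 1 derivation and each on 3 Affymetrix MG-430 2.0 arrays. The wild-type and knockout lines were grown from the trachea of Gprc5a wild-type and Gprc5a knockout mice aged 3 weeks, and the labels call both normal lung epithelial cells. The tumour line came from a lung adenocarcinoma that arose in a Gprc5a knockout female killed 16 months after an injection of NNK, a carcinogen of tobacco. All 3 lines have the same labelled strain background, C57/BL6 x sv129, and no untreated line from lung or line from another tumour was analysed here. Knockout against wild-type therefore compares 1 line with 1 line, and the tumour line differs from both others in organ, carcinogen and age at once. Genotype, line and these other differences cannot be told apart. The labels do not say that the replicate arrays are separate cultures, so the errors and p-values below cover only the spread between arrays.

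Replication begins in G1 phase, when the origin recognition complex, Cdc6 and Cdt1 load the ring of Mcm2 to Mcm7 proteins on origins, a step called licensing. In S phase the kinase Cdc7 with its activator Dbf4, together with Cdc45 and the GINS complex, turn that ring into the active helicase, and polymerases alpha, delta and epsilon copy the strands behind it with the clamp PCNA. Ribonucleotide reductase and the thymidylate enzymes supply the deoxynucleotides. Many of these genes are transcribed in late G1 under E2F factors, which bind short promoter elements and are held back by the Rb family, and airway epithelium at rest carries little of their RNA.

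The letters of the E2F element were searched in the promoter windows of RefSeq (build GRCm38.p6, from 250 bases before to 50 bases after each start), which held 38 of the 46 genes. The core searched was TTCCCGC or TTCGCGC or TTGCCGC or TTGGCGC on either strand, with overlapping matches counted separately. It was present in 22 of the 38 genes (57.9%), against 10.9% of the 27025 genes with a window, and in 25 of the 45 windows of these genes (55.6%), against 9.57% of all 32851 windows. At least 2 cores stood in 22.2% of the members' windows and in 1.18% of all windows. The CCAAT box, searched as CCAAT on either strand, was in 51.1% of the members' windows and 37.4% of all, and the median GC content was 60% and 52.7%. A match is a description of these letters and not a shown binding site.

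Of the windows, 6 are printed 5′ to 3′ on the gene's own strand, with the matched cores in capitals. Each print was limited to the 170 bases upstream of the start. For Rrm2 the limit was set to 250, because its only core lies farther from the start. Within that limit, each was cut to bases that lie outside every annotated gene span. Rrm2 (chr12:24708004-24708253, plus strand) and Mcm5 (chr8:75109339-75109467, plus strand) were the genes with a printable window that fell in the knockout line. Mcm6 (chr1:128359706-128359875, minus strand) and Rpa2 (chr4:132768190-132768359, plus strand) had large tumour line differences. Gins3 (chr8:95633389-95633558, plus strand) had a core and little difference at its brightest probe set, and Mcm2 (chr6:88898781-88898950, minus strand) had no core and a large difference.
Rrm2: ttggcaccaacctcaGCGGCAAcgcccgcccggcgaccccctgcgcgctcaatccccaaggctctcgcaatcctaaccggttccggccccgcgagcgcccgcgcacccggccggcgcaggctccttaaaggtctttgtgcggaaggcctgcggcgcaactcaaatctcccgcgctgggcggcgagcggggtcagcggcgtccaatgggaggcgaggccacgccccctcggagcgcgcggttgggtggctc
Mcm5: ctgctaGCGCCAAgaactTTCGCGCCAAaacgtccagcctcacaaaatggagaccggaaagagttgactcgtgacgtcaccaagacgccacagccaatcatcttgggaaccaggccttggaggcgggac
Mcm6: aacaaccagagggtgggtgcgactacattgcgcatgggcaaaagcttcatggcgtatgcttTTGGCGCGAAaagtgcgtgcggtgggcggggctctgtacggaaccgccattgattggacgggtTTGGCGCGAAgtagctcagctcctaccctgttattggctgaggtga
Rpa2: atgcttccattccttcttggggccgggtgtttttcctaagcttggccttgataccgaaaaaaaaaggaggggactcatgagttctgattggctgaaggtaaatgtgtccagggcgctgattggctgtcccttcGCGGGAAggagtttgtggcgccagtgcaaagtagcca
Gins3: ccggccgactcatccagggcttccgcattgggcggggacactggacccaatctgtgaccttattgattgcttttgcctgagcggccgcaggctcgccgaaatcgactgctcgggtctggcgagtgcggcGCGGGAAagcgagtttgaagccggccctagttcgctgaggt
Mcm2: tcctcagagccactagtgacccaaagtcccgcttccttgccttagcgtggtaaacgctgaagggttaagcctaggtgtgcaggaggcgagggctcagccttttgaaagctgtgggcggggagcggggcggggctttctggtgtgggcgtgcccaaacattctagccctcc
In Mcm5 and Mcm6 the cores lay on both strands, with first bases at -164, -152 and -149 from the start of Mcm5 and at -109, -106, -46 and -43 from that of Mcm6, and those that begin 3 bases apart overlap. The single core of Rrm2 began at -235 and that of Gins3 at -41. The 6 were chosen after their values were seen. Among them a core stands beside a small difference at the brightest probe set of Gins3, and no core beside a large one in Mcm2. The core of Cdc6 lies inside the annotated gene span and is not printed.

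Array quality and identity were read from the same values. The median log2 signal of the arrays lay between 6.28 and 6.34. Gprc5a read 8.32 to 8.74 on the wild-type arrays, 7.09 to 7.20 on the knockout arrays and 6.96 to 7.09 on the tumour arrays, so the targeted gene goes the way of the labels, which do not say whether its probe set lies in the deleted part. The summed level of 7 epithelial markers was 15.41 to 16.04 on the log2 scale over all arrays, and Epcam and Cdh1 were bright in every line, but the keratins differed widely. Krt5 and Krt14, keratins of basal cells, were 62.1-fold and 171-fold lower in the tumour than on the knockout arrays, and Krt18, a keratin of simple epithelium, was 11.3-fold higher than on the knockout and 66.3-fold higher than on the wild-type arrays. The tumour line differs from both tracheal lines in its epithelial keratins, and the part of this in the members' differences was not tested.

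Markers of other cell types were read too. Under the floor on every array were 1 of 6 fibroblast markers (Col3a1), 1 of 5 leukocyte markers (Ptprc) and 2 of 5 endothelial markers (Tek and Emcn), while the others lay above it on at least some arrays. Their summed levels ranged over all lines from 8.40 to 8.67, from 9.28 to 9.69 and from 8.15 to 8.37, and 0 genes of these lists were called in any comparison. Of 4 smooth muscle markers Acta2 alone was called, with a mean of 11.24 for the wild-type line, 9.84 for the knockout and 8.23 for the tumour line, while Myh11, Cnn1 and Des differed by at most 0.22. The beta-actin 3′ minus 5′ difference, a sign of RNA integrity, was 0.75, 1.09 and 1.78 in the wild-type line, 0.90 to 0.95 in the knockout line and 0.37 to 0.74 in the tumour line. In exact two-sided permutation tests its p was 0.6 for knockout against wild-type. It was 0.1, the smallest that 3 against 3 arrays allow, for the tumour line against each other line. The same difference for Gapdh was 0.33 to 1.20 on the wild-type arrays and 0.47 to 0.57 on the knockout arrays. On the tumour arrays it was 0.21 to 0.75, so all lines overlapped. The same tests of Gapdh gave a p of 0.4 between the tracheal lines. With the tumour arrays, p was 0.7 beside the knockout arrays and 0.3 beside the wild-type arrays. Gapdh thus did not set the tumour line apart. The part of RNA integrity and of Acta2 in the differences below was not tested. Without wild-type replicate 3, the array with the value of 1.78, 3 members were called in the knockout against the wild-type line and 31 in the tumour against the wild-type line, as with it.

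All values are log2 signals as deposited, and a difference of 1 is 2-fold. The floor was set at 5.15, the 95th percentile of 27 bacterial control probe sets. A gene is said to have risen or fallen where limma's adjusted p over 18193 genes was under 0.05 and the change at least 2-fold. All 9 arrays were above the floor for 45 of the 46 genes, the exception being Tyms. In cultures measured in bulk, more cells in S phase and more RNA per cell cannot be told apart.

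At the brightest probe sets the tumour line had the highest mean for all 46 genes, against 40% of all genes on the array. The knockout line had the lowest mean for 31, against 28.8%. As the tumour mean was highest in all 46, these 31 are the genes lower in the knockout than in the wild-type line. The 3 tumour arrays lay above the 6 tracheal arrays for 42 of the 46, against 20.8% of all genes, and the 4 exceptions were Orc1, Gins3, Pold2 and Rfc1. Against the knockout line 34 of the 46 rose and 0 fell, where 7.79% of all genes rose and 6.38% fell, and the 46 differences had a median of 1.47 beside a median of 2.73e-05 over all genes. Against the wild-type line 31 rose and 0 fell, where 8.09% of all genes rose and 8.46% fell, with a median of 1.42 beside 0.0101 over all genes. The tumour arrays lay wholly above the knockout arrays for all 46 genes, against 27.4% of all genes, and wholly above the wild-type arrays for 42, against 28.4%. The comparisons share arrays and are not independent of each other.

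Between the normal lines the differences were smaller and ran mostly the other way. In the knockout line 3 of the 46 genes fell, Rrm2, Mcm5 and Cdc6, and 0 rose, where 2.98% of all genes fell and 1.9% rose. With no fold limit, 17 members were lower at an adjusted p under 0.05, against 16.2% of all genes, and 1 was higher, Pole2, against 10.2%. The knockout arrays lay wholly below the wild-type arrays for 23 of the 46 genes, against 22.4% of all genes, and wholly above them for Orc2 and Pole2, against 16.7%. The median difference was -0.20, and 31 of the 46 were below 0, against 50.9% of all genes. The tumour arrays lay above the knockout arrays for all 46 genes, so the same 23 genes had knockout arrays below the other 6. That count, beside 8.94% of all genes, is not a separate result.

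**Figure D1:**
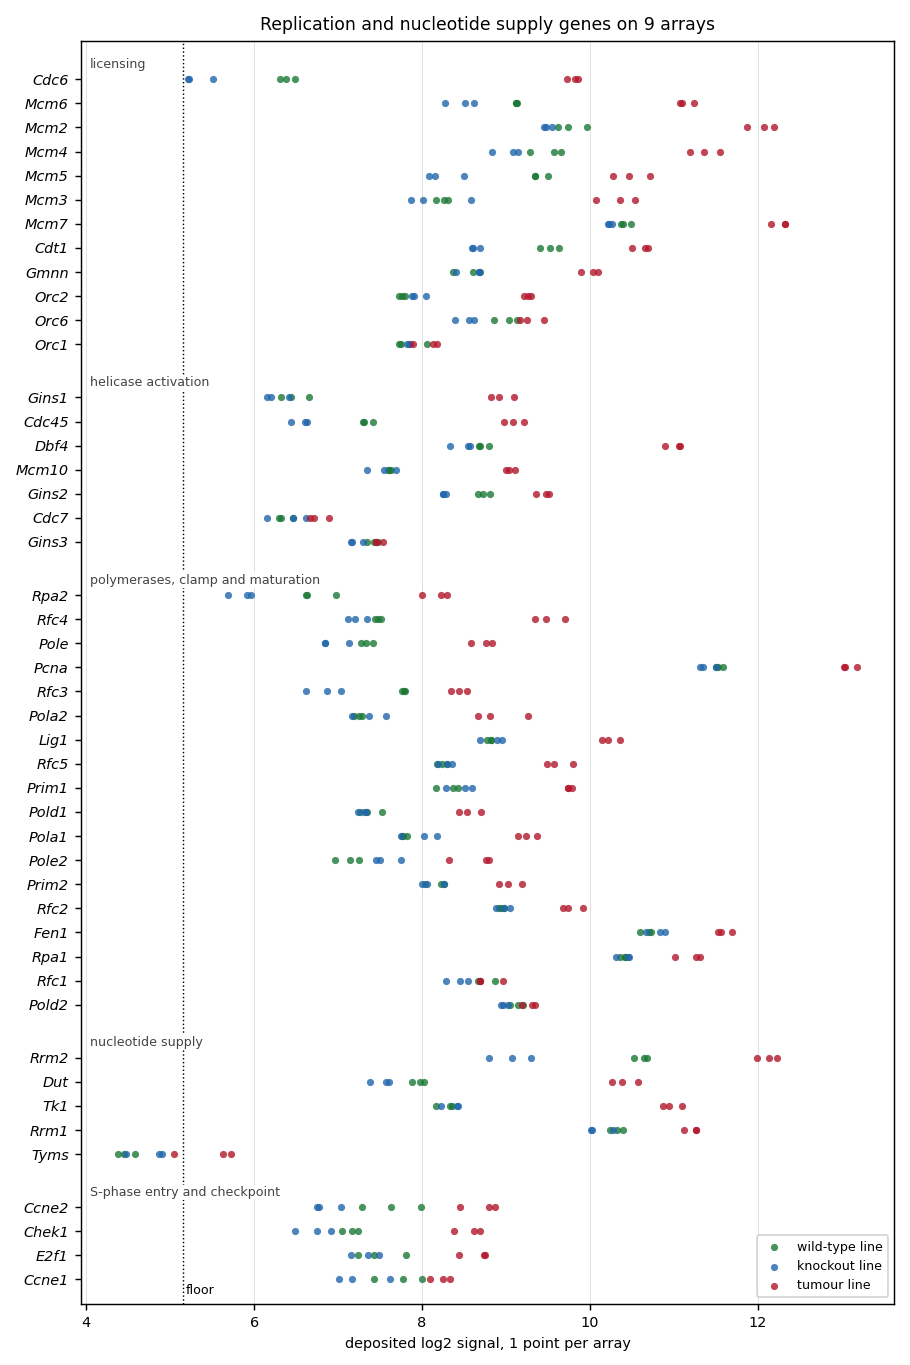
Deposited log2 signal (horizontal axis) of the 46 genes in rows by role, 1 point per array, with 3 arrays each of the wild-type line (green), the knockout line (blue) and the tumour line (red), and the floor of 5.15 as a dotted line. The red points lie to the right of all green and blue points in 42 rows, and signals of different rows come from different probe sets and cannot be compared.

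Licensing held the gene with the largest tumour line difference, Cdc6. Of the 12, 10 rose in the tumour line against each tracheal line, with medians of 2.10 against the knockout and 1.67 against the wild-type line, and 2 fell in the knockout line, with a median of -0.38. All 6 subunits of the helicase ring, Mcm2 to Mcm7, rose in the tumour line, by 2.04 to 2.67 against the knockout and by 1.09 to 2.27 against the wild-type line.

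Cdc6, the loader that joins the origin complex to bring in the ring, read 6.31, 6.48 and 6.38 on the wild-type arrays, 5.21, 5.22 and 5.51 on the knockout arrays and 9.86, 9.73 and 9.82 on the tumour arrays. The lines did not overlap, and the knockout arrays lay just above the floor. Cdc6 rose 22.4-fold from the knockout to the tumour line (4.49 ± 0.10 log2, SE, n = 3 arrays a line, limma adjusted p = 5.44e-14) and 10.7-fold from the wild-type line (3.41 ± 0.10, adjusted p = 8.48e-13). It fell by 1.07 ± 0.10 in the knockout line against the wild-type (2.1-fold, adjusted p = 1.38e-06).

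Mcm6, a ring subunit, read 9.13, 9.12 and 9.13 on the wild-type arrays, 8.62, 8.51 and 8.28 on the knockout arrays and 11.07, 11.09 and 11.24 on the tumour arrays. All knockout arrays were low and all tumour arrays high. It rose 6.35-fold over the knockout line (2.67 ± 0.10, adjusted p = 1.64e-11) and 4.03-fold over the wild-type line. The knockout to wild-type difference of -0.65 ± 0.10 had an adjusted p of 0.000164 and was under 2-fold. Mcm5, another ring subunit, read 9.34, 9.51 and 9.34 on the wild-type arrays, 8.49, 8.15 and 8.08 on the knockout arrays and 10.27, 10.72 and 10.47 on the tumour arrays. The lines again stood apart in the order knockout, wild-type, tumour. Mcm5 fell by 1.16 ± 0.13 in the knockout line (2.23-fold, adjusted p = 7.78e-06) and rose 4.74-fold from there to the tumour line (adjusted p = 1.68e-09). Over the wild-type line it rose 2.13-fold (1.09 ± 0.13, adjusted p = 4.06e-06), which became 0.97 and no longer 2-fold without tumour replicate 2.

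Mcm2 read 9.62, 9.74 and 9.96 on the wild-type arrays, 9.55, 9.45 and 9.48 on the knockout arrays and 12.07, 11.87 and 12.19 on the tumour arrays. The tracheal lines were close to each other, with a difference of -0.28 ± 0.11 (adjusted p = 0.0815), and the tumour line rose 5.85-fold over the knockout line (adjusted p = 6.73e-11). Mcm4 read 9.29, 9.65 and 9.58, then 9.15, 8.84 and 9.08, and 11.36, 11.19 and 11.55 in the same order of lines. Its tumour arrays were the high ones, 5.08-fold over the knockout line (adjusted p = 7.08e-10), and its knockout to wild-type difference of -0.48 ± 0.12 was under 2-fold. Mcm3 and Mcm7 rose by 2.17 and 2.04 over the knockout line, with knockout to wild-type differences of -0.09 and -0.19. The other probe sets of Mcm3 gave -0.68, -0.44, -0.40 and -0.29 between the tracheal lines, none called. In the fit of single probe sets, the adjusted p was 0.00239 and 0.0115 for the first and second of these. The small difference of Mcm3 thus holds for its brightest probe set only.

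Cdt1, the partner of Cdc6 in loading, rose by 1.98 over the knockout and by 1.09 over the wild-type line, and its knockout to wild-type difference of -0.89 (adjusted p = 4.41e-06) was under 2-fold. Gmnn, which encodes the Cdt1 inhibitor geminin, rose by 1.42 and 1.45 with a difference of 0.03 between the tracheal lines. The genes of the origin complex were uneven. Orc2 rose by 1.31 and 1.50, while Orc6 differed by 0.77 and 0.28 without a call. Orc1, whose largest difference was the smallest of the 12, read 7.75, 7.72 and 8.06 on the wild-type arrays, 7.86, 7.84 and 7.83 on the knockout arrays and 7.89, 8.14 and 8.18 on the tumour arrays. Those arrays overlapped between the wild-type line and both others, and the tumour to knockout difference was 0.23 ± 0.11 (adjusted p = 0.116). A dimmer probe set of Orc1 gave 1.70 for the same difference (adjusted p = 1.46e-05 in the fit of single probe sets), so the flat reading of Orc1 holds for its brightest probe set only.

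**Figure D2:**
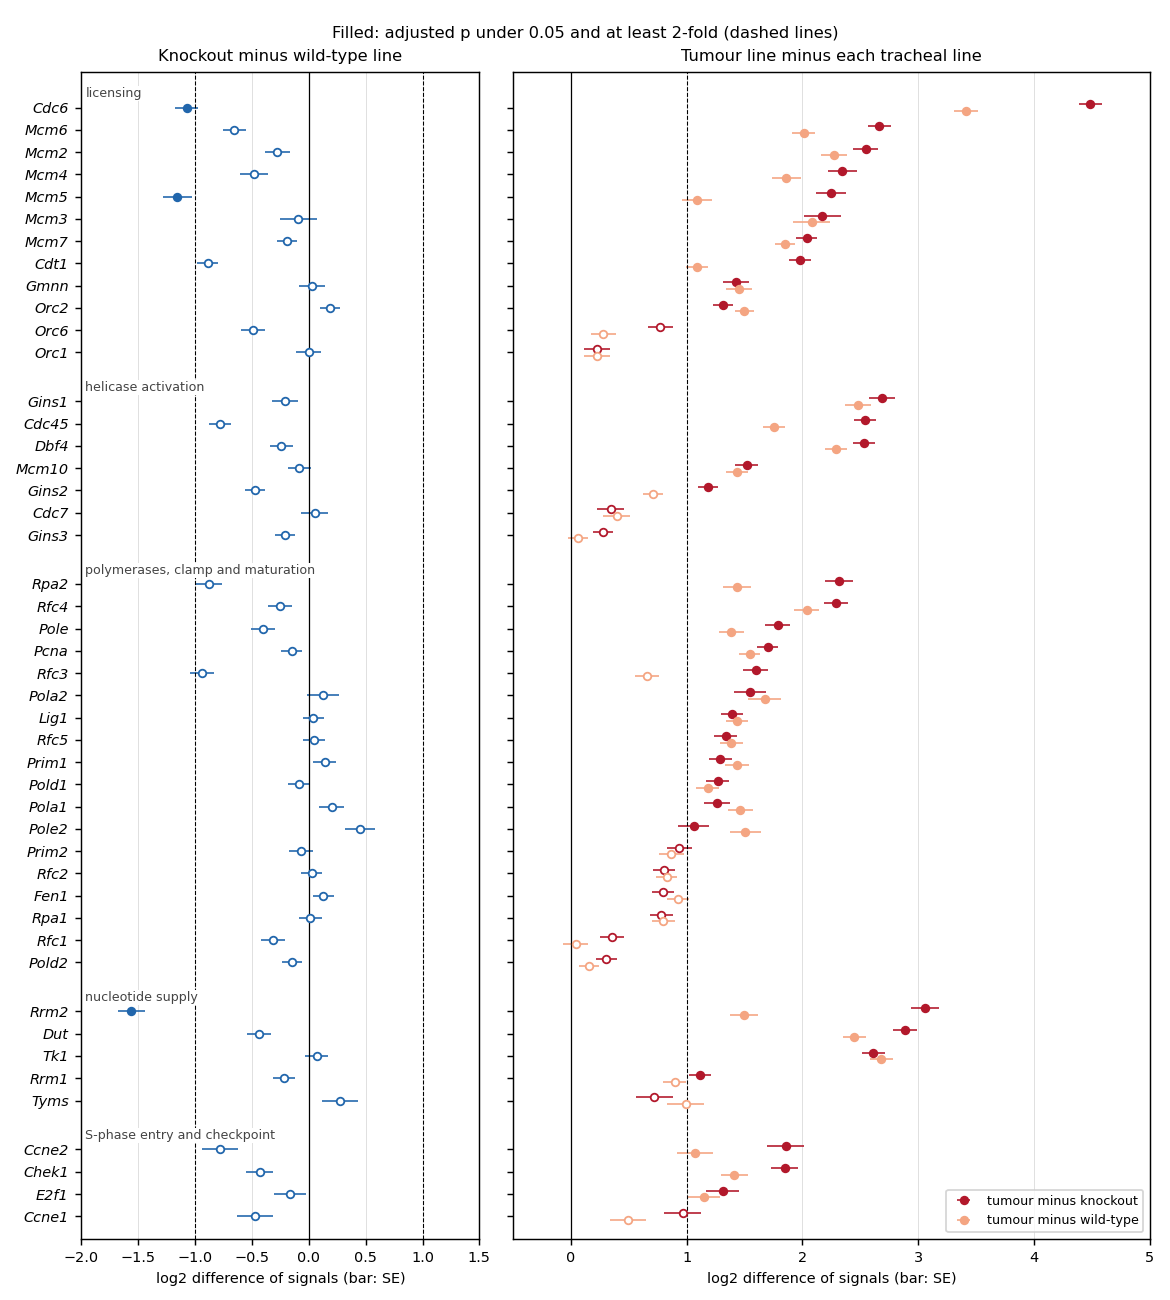
Log2 differences of the 46 genes by role, knockout minus wild-type line on the left and tumour line minus each tracheal line on the right, with bars for the standard error from 3 arrays a line and filled points for genes past both thresholds. The points on the right all lie above 0, up to 4.49 for Cdc6, while on the left only Rrm2, Mcm5 and Cdc6 are filled.

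Of the 7 genes for helicase activation, 5 rose in the tumour line against the knockout and 4 against the wild-type line, with medians of 1.52 and 1.44, and 0 were called between the tracheal lines, where the median was -0.21. Gins1, a GINS subunit, read 6.43, 6.32 and 6.65 on the wild-type arrays, 6.16, 6.2 and 6.41 on the knockout arrays and 8.82, 8.92 and 9.1 on the tumour arrays. Its tracheal arrays overlapped and its tumour arrays were high, 6.45-fold over the knockout line (2.69 ± 0.11, adjusted p = 5.14e-11) and 5.57-fold over the wild-type line. Cdc45, which rides with the ring in the active helicase, read 7.3, 7.31 and 7.42, then 6.63, 6.6 and 6.43, and 8.98, 9.22 and 9.08. Its 3 lines did not overlap, with 5.81-fold between tumour and knockout (adjusted p = 1.7e-11) and a knockout to wild-type difference of -0.78 ± 0.10 (adjusted p = 1.99e-05) that was under 2-fold. A second probe set of Cdc45 gave -0.30 for tumour minus knockout (adjusted p = 0.0197 in the fit of single probe sets), opposite in sign and not called. On the tracheal arrays that second probe set was the brighter, with means of 7.63 and 7.71 against 7.34 and 6.56. The choice of the brightest probe set of Cdc45 thus rested on the tumour arrays.

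Dbf4, the activator of the kinase Cdc7, read 8.79, 8.69 and 8.68 on the wild-type arrays, 8.57, 8.33 and 8.54 on the knockout arrays and 11.06, 10.9 and 11.08 on the tumour arrays. The tumour arrays were high and rose 5.78-fold over the knockout line (2.53, adjusted p = 1.91e-11), while the tracheal lines differed by -0.24 (adjusted p = 0.087). Cdc7 itself, the catalytic subunit, differed by 0.34 and 0.40 in the tumour line without a call. Its other probe set gave 1.97 against the knockout line (adjusted p = 5.59e-08), so the small difference of Cdc7 holds for its brightest probe set alone. Between the tracheal lines that other probe set gave -0.77 (adjusted p = 0.000424 in the fit of single probe sets), under 2-fold, beside 0.05 at the brightest.

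Mcm10, a factor for helicase activation, read 7.63, 7.6 and 7.61, then 7.69, 7.35 and 7.55, and 9.04, 9.0 and 9.11 in the tumour line, with tracheal arrays that overlapped. It rose 2.87-fold over the knockout line (adjusted p = 5.75e-09). The GINS subunits were unlike each other. Gins2 read 8.67, 8.73 and 8.81 on the wild-type arrays, 8.29, 8.25 and 8.24 on the knockout arrays and 9.36, 9.51 and 9.47 on the tumour arrays. It rose 2.28-fold over the knockout line (adjusted p = 2.38e-08) but differed from the wild-type line by 0.71 without a call, and its 3 knockout arrays were low. Gins3 read 7.43, 7.47 and 7.34, then 7.16, 7.15 and 7.29, and 7.45, 7.45 and 7.54. The tumour and wild-type arrays of Gins3 overlapped, with differences of 0.28 over the knockout line (adjusted p = 0.0176) and 0.07 over the wild-type line (adjusted p = 0.592). A dimmer probe set of Gins3 gave 0.73 and 0.40, neither called (adjusted p = 0.000356 and 0.0183 in the fit of single probe sets).

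Among the 18 genes for polymerases, clamp and strand processing, 12 rose in the tumour line against the knockout and 11 against the wild-type line, with medians of 1.28 and 1.39. Between the tracheal lines 0 were called and the median was -0.03. Rpa2, a subunit of the complex that coats single-stranded DNA, read 6.63, 6.61 and 6.97 on the wild-type arrays, 5.69, 5.96 and 5.92 on the knockout arrays and 8.29, 8.0 and 8.23 on the tumour arrays. Its lines stood apart, with a rise of 4.98-fold over the knockout line (2.32 ± 0.12, adjusted p = 5.88e-10), 2.7-fold over the wild-type line, and a knockout to wild-type difference of -0.88 ± 0.12 (adjusted p = 5.73e-05), under 2-fold. Rpa1, the large subunit of that complex, differed by 0.78 and 0.80 in the tumour line and by 0.01 between the tracheal lines, without a call.

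The clamp loader was uneven. Rfc4 read 7.47, 7.52 and 7.44 on the wild-type arrays, 7.2, 7.11 and 7.35 on the knockout arrays and 9.48, 9.35 and 9.71 on the tumour arrays, all tumour arrays being high. It rose 4.9-fold over the knockout line (adjusted p = 1.36e-10) and 4.1-fold over the wild-type line. Rfc5 rose by 1.34 and 1.38, and Rfc3 by 1.60 over the knockout line but differed by 0.66 from the wild-type line. Rfc3 was lower in the knockout than in the wild-type line by -0.94 (adjusted p = 9.65e-06), under 2-fold, and passed the fold limit at -1.03 without knockout replicate 2. Rfc2 differed by 0.80 and 0.83, and Rfc1, the largest subunit, by 0.36 and 0.04, all without a call. Against the wild-type line Rfc1 was at -0.05 without tumour replicate 3 and at -0.09 with the mean of its probe sets in place of the brightest. Pcna, the clamp that these subunits load, read 11.53, 11.51 and 11.59 on the wild-type arrays, 11.35, 11.5 and 11.32 on the knockout arrays and 13.19, 13.03 and 13.05 on the tumour arrays. It rose 3.25-fold over the knockout line (1.70, adjusted p = 7.22e-10), and the tracheal lines differed by -0.15 (adjusted p = 0.264).

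The polymerase genes were uneven as well. Pole, the catalytic subunit of polymerase epsilon, read 7.41, 7.33 and 7.27 on the wild-type arrays, 7.13, 6.84 and 6.84 on the knockout arrays and 8.58, 8.83 and 8.76 on the tumour arrays. The lines did not overlap, and Pole rose 3.45-fold over the knockout line (adjusted p = 2.25e-09) and 2.62-fold over the wild-type line. Pola2, the accessory subunit of polymerase alpha, read 7.28, 7.25 and 7.19, then 7.17, 7.37 and 7.57, and 8.67, 8.82 and 9.26. Its tracheal arrays overlapped, and it rose 2.92-fold over the knockout line (1.55 ± 0.14, adjusted p = 2.49e-07). Pola1 and Prim1, the catalytic polymerase and primase subunits of the same complex, rose by 1.26 and 1.29 over the knockout line, while Prim2, the large primase subunit, differed by 0.94 without a call.

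Pold1, the catalytic subunit of polymerase delta, rose by 1.27 and 1.18, while for its partner Pold2 the largest of the 3 differences was smaller than that of any other of the 18. Pold2 read 9.04, 9.2 and 9.15 on the wild-type arrays, 8.97, 8.94 and 9.03 on the knockout arrays and 9.35, 9.19 and 9.32 on the tumour arrays. Its tumour and wild-type arrays overlapped, with differences of 0.31 over the knockout line (adjusted p = 0.00972) and 0.16 over the wild-type line (adjusted p = 0.168). Pole2, the second subunit of polymerase epsilon, rose by 1.06 and 1.51, and the call against the knockout line was lost without tumour replicate 2 (0.99) or tumour replicate 3 (0.98). Pole2 was also the member with a positive knockout to wild-type difference past the p limit (0.45, adjusted p = 0.0215), under 2-fold. For joining the strands, the ligase Lig1 rose by 1.39 and 1.43. The flap nuclease Fen1 differed by 0.80 and 0.92 without a call at its brightest probe set, and its other probe set gave 2.30 over the knockout line (adjusted p = 7.37e-08).

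Rrm2, one of the 5 nucleotide supply genes, had the largest difference between the normal lines among the 46. Of the 5, 4 rose in the tumour line against the knockout and 3 against the wild-type line, with medians of 2.61 and 1.49, and 1 fell in the knockout line, where the median was -0.22. Rrm2, the small subunit of ribonucleotide reductase, read 10.53, 10.65 and 10.68 on the wild-type arrays, 9.3, 8.8 and 9.08 on the knockout arrays and 11.99, 12.23 and 12.13 on the tumour arrays. The knockout arrays were low and the tumour arrays high, with no overlap. Rrm2 fell by 1.56 ± 0.12 in the knockout line (2.95-fold, adjusted p = 1.54e-07), the largest fall of the 46 genes. It rose 8.32-fold from there to the tumour line (3.06 ± 0.12, adjusted p = 2.41e-11) and 2.82-fold over the wild-type line. Its other probe sets gave -1.19 and -1.77 between the tracheal lines, both called. Rrm1, the large subunit, read 10.24, 10.33 and 10.4, then 10.27, 10.02 and 10.02, and 11.13, 11.27 and 11.26. Its tracheal arrays overlapped, with a difference of -0.22 (adjusted p = 0.125), and it rose 2.17-fold over the knockout line (adjusted p = 1.89e-07) and differed by 0.90 from the wild-type line without a call. Whether the Rrm1 and Rrm2 differences differ from each other was not tested.

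Dut, the enzyme that keeps dUTP out of DNA, read 7.88, 7.97 and 8.03 on the wild-type arrays, 7.58, 7.6 and 7.38 on the knockout arrays and 10.57, 10.26 and 10.39 on the tumour arrays. It rose 7.4-fold over the knockout line (2.89, adjusted p = 8.96e-12) and 5.46-fold over the wild-type line, with the knockout arrays lowest by a difference of -0.44 that was under 2-fold. Tk1, the thymidine kinase of the salvage route, read 8.36, 8.33 and 8.17, then 8.42, 8.43 and 8.22, and 10.87, 11.1 and 10.94. The tracheal arrays overlapped (0.07, adjusted p = 0.689), and Tk1 rose 6.11-fold over the knockout line (adjusted p = 1.83e-11) and 6.42-fold over the wild-type line. Tyms, the thymidylate synthase of the other route, read 4.58, 4.45 and 4.38 on the wild-type arrays, 4.9, 4.47 and 4.86 on the knockout arrays and 5.63, 5.04 and 5.72 on the tumour arrays. All tracheal arrays and 1 tumour array of Tyms were under the floor, so it has no measured fold. The tumour mean was 1.24-fold above the floor, but it includes the array under it and is no sure lower bound. Tyms is also counted among the genes whose tumour arrays lay above the tracheal arrays, on signals partly under the floor.

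The 4 genes of S phase entry and checkpoint included 3 that rose in the tumour line against each tracheal line and 0 called between those lines, with medians of 1.58, 1.11 and -0.45. Ccne2, one of the E cyclins that drive entry into S phase, read 7.29, 7.63 and 7.99 on the wild-type arrays, 7.03, 6.75 and 6.77 on the knockout arrays and 8.79, 8.45 and 8.87 on the tumour arrays. The tumour arrays were high and the knockout arrays low, but the wild-type arrays were spread. Ccne2 rose 3.62-fold over the knockout line (adjusted p = 1.44e-07) and 2.1-fold over the wild-type line (adjusted p = 4e-05), a call lost without wild-type replicate 1 (0.90) or tumour replicate 3 (0.99). Ccne1, the other E cyclin, read 7.43, 8.0 and 7.78, then 7.17, 7.01 and 7.62, and 8.34, 8.09 and 8.25, with differences of 0.97 and 0.49 in the tumour line and no call. Its tracheal arrays overlapped, and its tumour arrays lay above both.

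Chek1, the checkpoint kinase that protects stalled forks, read 7.04, 7.17 and 7.24 on the wild-type arrays, 6.92, 6.49 and 6.75 on the knockout arrays and 8.38, 8.62 and 8.69 on the tumour arrays. It rose 3.6-fold over the knockout line (adjusted p = 6.72e-09) and 2.66-fold over the wild-type line, and its knockout arrays were lowest. E2f1, an activating E2F factor, read 7.81, 7.24 and 7.43, then 7.49, 7.35 and 7.15, and 8.74, 8.75 and 8.44. Its tracheal arrays overlapped, and it rose 2.48-fold over the knockout line (adjusted p = 1.76e-06) and 2.22-fold over the wild-type line.

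Several probe sets were present for 36 of the 46 genes and 1 for the other 10. Against the knockout line 26 of the genes called higher had several, and in 19 of these another probe set was called in the same direction, in 0 in the opposite one. The 7 without such a probe set were Dbf4, Cdc45, Gins1, Pola1, Pola2, Pole2 and Dut. Conversely 5 uncalled genes, Orc1, Cdc7, Rpa1, Fen1 and Ccne1, had another probe set that was called higher. Against the wild-type line 23 called genes had several, and in 16 another probe set was called in the same direction, in 0 in the opposite one. There 7 uncalled genes, Orc1, Cdc7, Gins2, Prim2, Rpa1, Fen1 and Rrm1, had another probe set called higher. It gave 1.40 for Rrm1 and 1.07 for Gins2. Between the tracheal lines the calls of Rrm2 and Mcm5 were each shared by another probe set, and Cdc6 has 1 probe set. For the tumour minus the knockout line, the 4 other probe sets of Mcm3 gave 3.47, 3.41, 2.67 and 0.51 beside 2.17 for the brightest.

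**Figure D3:**
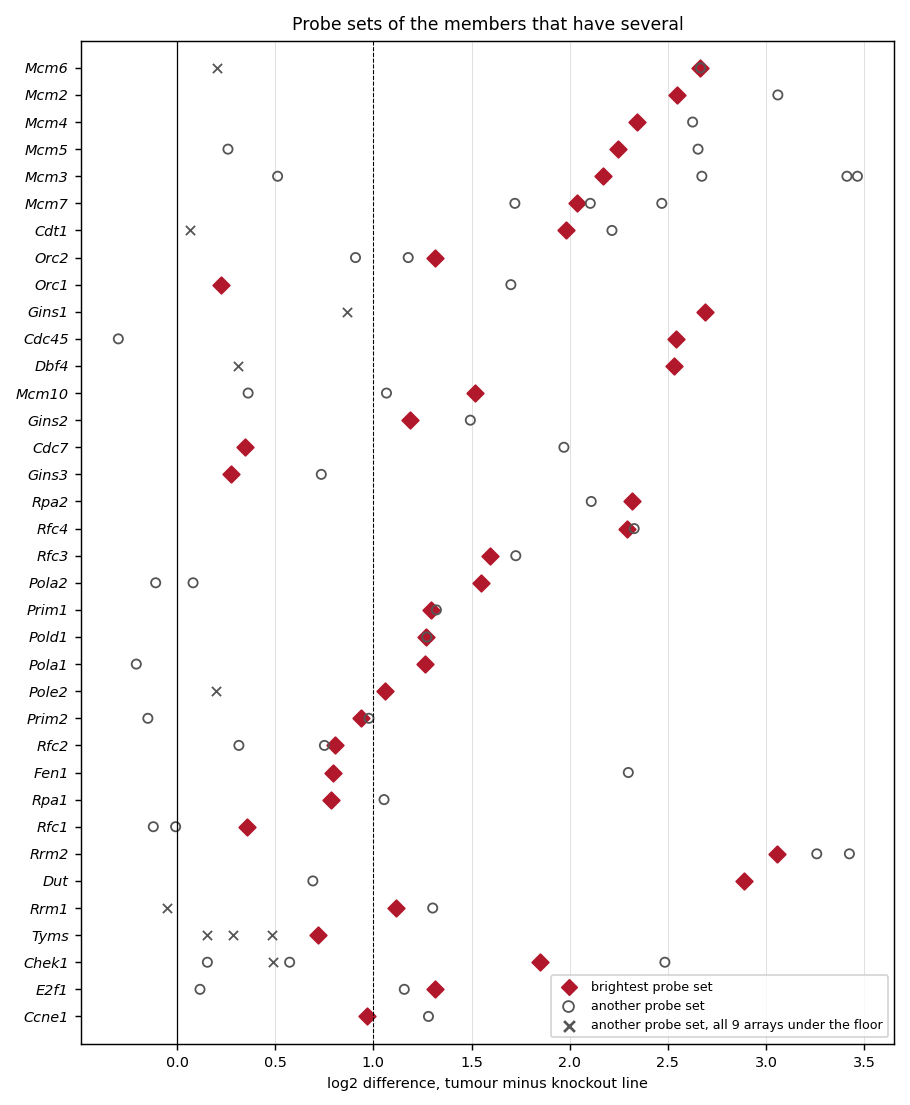
Log2 difference of the tumour minus the knockout line (horizontal axis) for each probe set of the 36 genes with several, with red diamonds for the brightest probe set, circles for the others and crosses where all 9 arrays were under the floor. Cdc7, Fen1 and Orc1 have another probe set well to the right of the brightest, and Cdc45, Pola2 and Pola1 have others near or below 0.

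Related genes were counted in lists of their own. Of all genes, 7.79% rose and 6.38% fell in the tumour against the knockout line. Against the wild-type line 8.09% rose and 8.46% fell, and between the tracheal lines 1.9% rose and 2.98% fell. The counts of each list below stand beside these shares. Of 29 measured other replication factors, 18 rose in the tumour line against the knockout, 16 against the wild-type line and 0 were called between the tracheal lines, with medians of 1.19, 1.10 and -0.22. Chaf1b, a histone chaperone subunit that works behind the fork, rose by 2.60 and 1.94. Dtl, which directs Cdt1 to degradation, rose by 2.27 and 1.69, and the nuclease and helicase Dna2 by 2.19 and 1.85. Dscc1, of an alternative clamp loader, was under the floor on all tracheal arrays and at least 3.76-fold higher in the tumour line, its mean of 7.06 set against the floor.

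Nucleotide metabolism outside the 5 members had medians nearer 0. Of 22 measured genes 6 rose against the knockout line, 9 against the wild-type line and 0 fell, with medians of 0.38 and 0.46, and 0 were called between the tracheal lines, where the median was 0.02. Cad, which starts pyrimidine synthesis, rose by 1.27 and 2.15. The purine enzyme Gart rose by 1.81 and 1.99, and Mthfd2, a mitochondrial folate enzyme, by 2.18 and 1.58. Umps, which completes uridine monophosphate, rose by 1.14 over the knockout line, and Dtymk, the thymidylate kinase, by 1.50 over the wild-type line.

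The 20 regulators of the E2F and Rb system moved both ways. Between the tracheal lines 1 rose, Cdkn1a, an inhibitor of cyclin-dependent kinases, by 1.49, and 1 fell, its relative Cdkn1c, by 1.03. The mean signal of Cdkn1a was 11.44 on the wild-type arrays, 12.93 on the knockout arrays and 12.02 on the tumour arrays. Against the knockout line 7 rose and 2 fell, where 7.79% of all genes rose and 6.38% fell. Against the wild-type line 5 rose and 1 fell, where 8.09% of all genes rose and 8.46% fell. The medians were 0.44 and 0.20, and the falls are too few to set apart from these shares. E2f8 and E2f7, repressing E2F factors, rose by 2.67 and 2.00 over the knockout line, the phosphatase Cdc25a by 1.87 and the ubiquitin ligase subunit Skp2 by 1.54. Rbl2, the Rb relative of resting cells, fell by 1.23 against the knockout and 1.54 against the wild-type line, and Rb1, named after its value was seen, fell by 1.06 against the knockout line. Against the wild-type line E2f8 rose by 2.04, E2f6 by 1.39 and Myc by 1.37.

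General proliferation markers rose in the tumour line too. All 6 measured rose in the tumour line against the wild-type line and 5 against the knockout line, with medians of 1.76 and 1.88, and 0 were called between the tracheal lines (median 0.08). Mki67 rose by 1.97 over the knockout and 1.53 over the wild-type line and differed by -0.44 between the tracheal lines. Top2a, the topoisomerase of dividing cells, rose by 2.26 and 1.83, and Ccna2, cyclin A, by 1.79 and 2.62. Between the tracheal lines Top2a differed by -0.43 and Ccna2 by 0.83, opposite in sign and not called. Birc5, a mitotic regulator, rose by 2.23 and 2.42, and the transcription factor Mybl2 by 1.70 over the wild-type line. The part of culture growth in the members' differences was not tested.

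**Figure D4:**
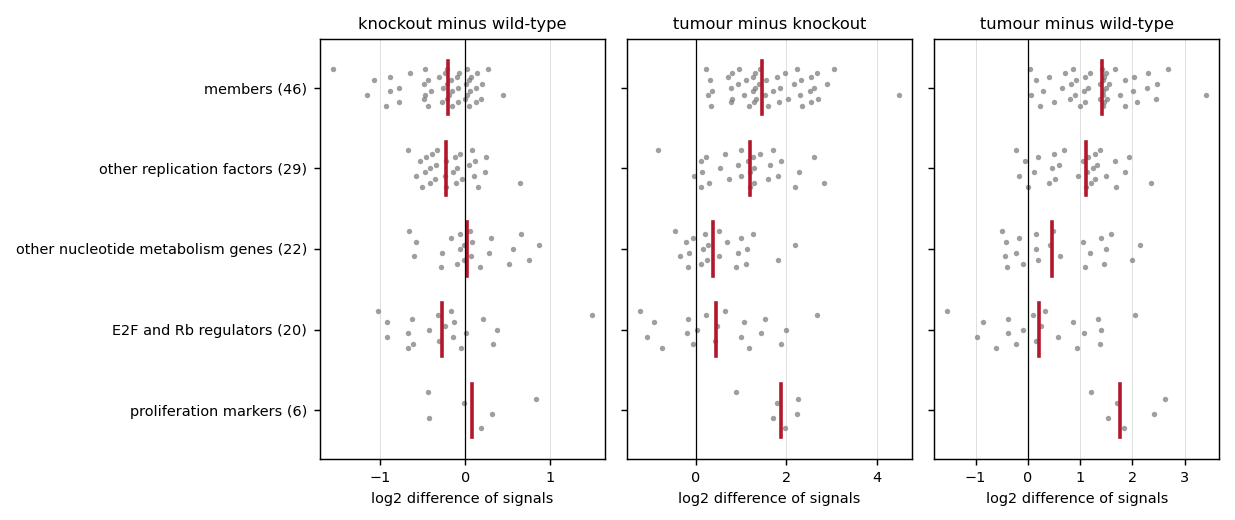
Log2 differences of single genes (points) and the median of each list (red bar) for the 46 members and 4 related lists in the 3 comparisons, with a separate horizontal scale in each panel. The members' medians are -0.20, 1.47 and 1.42, and those of the nucleotide metabolism genes outside the members are 0.02, 0.38 and 0.46.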

How the data were processed

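Total RNA of 3 lines, 3 arrays each, was labelled with biotin and hybridised, per the labels' protocols. The authors deposited log2 signals of 45101 probe sets. The background correction, summarisation and normalisation behind them were not given in the sources used here. Of the probe sets 64 were controls, 34945 carried 1 gene symbol in the platform annotation, 932 several and 9160 none, and those with several or none were left out. The brightest probe set stood for each of 18193 genes. Differences were fitted with limma 3.58.1 in R 4.3.3 with 1 coefficient per line over all 9 arrays, with 6 residual degrees of freedom before moderation and Benjamini-Hochberg adjustment over all genes, after a test on simulated data. A call needed an adjusted p under 0.05 and at least 2-fold. The number of arrays limits the precision. The 46 genes, their roles and the related lists were chosen with earlier results of these data known, as was the floor. Values on every array are given for up to 5 members per role with the largest difference and for the member with the smallest. Of the related lists up to 4 called genes per list and comparison are given by their differences, with Mki67 and Cdkn1a. Groups and replicate numbers follow the sample titles. Alternatives covered normalisation, the filter on dim probe sets, the choice of probe set, the fold threshold, an intensity trend, a replicate block and each array left out. Promoter letters came from RefSeq windows, printed only outside annotated gene spans.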

Additional observations from a re-analysis of the deposited data

How the results depend on the processing

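Across all settings run, 0 members fell in the tumour line and no called difference changed sign. With no fold threshold, 17 members were lower and 1 higher in the knockout against the wild-type line, where 4805 genes passed in all, and 8103 and 8614 passed for the tumour against the knockout and the wild-type line. At 1.5-fold, 9 members were lower and 0 higher in the knockout line. The totals over all genes, in either direction, were 2178, 4881 and 5386, so they are no background for the 9 lower members alone. Averaging all probe sets of each gene lowered the members' tumour medians to 1.34 and 1.04 and ended the call of Mcm5 between the tracheal lines (-0.79) and, for the tumour against the knockout line, those of Mcm10, Pola1, Pola2, Pole2, Rrm1 and E2f1, while Cdc7, Fen1 and Ccne1 gained one. Against the wild-type line it left 24 members called, without Mcm5, Cdt1, Mcm10, Cdc45, Pola1, Pola2, Pole2, E2f1 and Chek1 and with Rpa1 and Fen1. The averages of Rrm1, Pole2, Cdt1 and Chek1 took in a probe set that was under the floor on every array. Those of the other genes that lost a call did not. Leaving out each array gave 3 to 4 members lower in the knockout line, 33 to 35 higher in the tumour against the knockout line and 30 to 31 against the wild-type line. Over all genes, in either direction, those fits called 885 to 904, 2552 to 2637 and 2993 to 3082. The labels do not say whether replicate numbers pair the arrays. Same-numbered arrays correlated at -0.14 to 0.12 after removal of line means and others at -0.25 to 0.23. These ranges overlap and, with 3 arrays a line, cannot show whether the numbers mark a pairing. With the replicate block the counts were again 3, 34 and 31 members, with 888, 2578 and 3012 genes in all. Signal over background limits Tyms and Dscc1, which were under the floor on all tracheal arrays.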

Other observations

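A probe set that the annotation gives to both Tyms and Tyms-ps was left out of the members because it carries 2 symbols. It read 7.53, 7.51 and 7.56 in the wild-type line, 7.60, 7.60 and 7.56 in the knockout line and 9.49, 9.75 and 9.51 in the tumour line. These arrays were well above the floor, unlike those of the Tyms probe sets with a single symbol, and the tumour arrays were high with no overlap. It was singled out after its values were seen, it was not tested, and the reads of both genes cannot be told apart.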
